A study of Mus musculus with 24 samples.

Results

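The 1807 regions described here carried an H3K4me2 peak in both wild-type libraries of day 6 embryoid bodies (EB) and in neither wild-type library of embryonic stem (ES) cells. They were found by merging overlapping peaks of those 4 lists on chromosomes 1 to 19, X and Y, which gave 32800 regions, so that 5.51% of all regions followed this pattern. For comparison, 10505 regions lay in all 4 lists and 6668 lay in both ES lists and in neither EB list (ES-only regions). The regions were chosen by presence of H3K4me2 peaks in these 4 lists, so their values in these lists are a description, and tests were made only on libraries that the choice did not use.

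CUT&RUN, in which a nuclease held at the antibody's target releases DNA fragments for sequencing, was done on mouse cells of C57BL/6 background, wild type or Prdm16 KO. ES cells were grown on Matrigel with LIF and with both KSR and FBS. EB at day 6 of differentiation from ES cells were kept in an FBS medium for which no LIF is listed. Antibodies to H3K4me1, H3K4me2 and PRDM16 gave 12 groups of 2 libraries, 24 libraries in all. The labels do not give the KO allele or the number of KO lines, nor whether both libraries of a group had cultures of their own. P-values over libraries therefore measure a spread that may be technical.

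H3K4me1 and H3K4me2 are methyl marks on lysine 4 of histone H3. H3K4me1 is typical of enhancers, primed or active, while H3K4me2 is found at both enhancers and promoters, where it often flanks H3K4me3 at CpG-rich start sites. EB are aggregates in which ES cells leave the pluripotent state and begin to form cells of the germ layers, and enhancer marks are known to be remodelled during that step. PRDM16, a PR domain zinc finger factor, is best known from brown fat and from blood and neural stem cells.

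An EB-only region at chr7:3216116-3221579 (mm10) covered 8 miRNA hairpins of the miR-290 to miR-295 cluster, miRNAs known to be abundant in mouse ES cells. It held no H3K4me1 peak in any of the 8 H3K4me1 libraries. An H3K4me2 peak lay there in both EB KO libraries and in neither ES KO library. Its score percentile, the rank of the peak's score within its own list with 100 as the highest, was 72.9 and 42.7 in the wild-type EB libraries and 36.8 and 59.1 in the EB KO libraries. The wild-type part of this pattern was set by the choice of regions. The KO part was found at 54.7% of all EB-only regions within 2500 bp of a protein-coding gene end. In all, 14 of 1005 hairpins in the miRNA table (1.39%) were overlapped by an EB-only region, so the region of this cluster supplied most of them. The mature sequences below, from RefSeq (GRCm38.p6), are shown because they are among the products of that region, with the seed (bases 2 to 8) in capitals. Those of miR-290a-5p, miR-292a-5p and miR-293-5p share 1 seed, and those of miR-294-3p and miR-295-3p share another. A further seed was shared by miR-292b-5p and miR-294-5p, which are not shown. Among the mature sequences at hand, the seeds of miR-291b-3p and miR-290a-3p each occurred once. The 3p sequence of Mir292 was not among these, so the seeds of the cluster are not fully covered.
mmu-miR-290a-5p: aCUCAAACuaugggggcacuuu
mmu-miR-292a-5p: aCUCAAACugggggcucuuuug
mmu-miR-293-5p: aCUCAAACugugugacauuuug
mmu-miR-294-3p: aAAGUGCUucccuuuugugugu
mmu-miR-295-3p: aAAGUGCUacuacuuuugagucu
mmu-miR-291b-3p: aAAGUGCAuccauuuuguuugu
mmu-miR-290a-3p: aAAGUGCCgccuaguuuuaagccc

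Of the remaining hairpins, Mir21a lay in the EB-only region at chr11:86583946-86588703, 88 bp from an end of Vmp1. That region had H3K4me2 in both EB KO libraries and in neither ES KO library. Mir128-2 lay in a region inside Arpp21 at chr9:112117814-112119666, which had H3K4me1 in 2 of the 4 EB libraries and none of the 4 ES libraries, and H3K4me2 in neither EB KO nor ES KO library. The miRNA miR-21a is widely expressed, and miR-128 is best known from neurons. Their regions differed in presence in the EB KO lists and also in position, that of Mir128-2 lying 52723 bp from a gene end. Of the EB-only regions, 14.8% of those within 2500 bp of a gene end and 55.1% of those farther away were in neither EB KO list.
mmu-miR-21a-5p: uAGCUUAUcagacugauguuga
mmu-miR-128-3p: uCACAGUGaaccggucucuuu

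Promoters are shown for EB-only regions that held the gene's start site and that the results below turn on; they were picked after their values were seen. Each run is the 250 bases before the start site, 5′ to 3′ on the gene's strand, from the RefSeq table (GRCm38.p6). Capitals mark GGGCGG (the core letters of an SP/KLF box) or CCAAT on either strand. Elk3 (an ETS factor) and Tet2 (an enzyme that oxidises 5-methylcytosine) had high scores; Klf2, Fgf4 and Tfcp2l1 are genes of naive pluripotency. All 5 had H3K4me2 in both EB KO libraries and in no ES KO library. That pattern held at 54.7% of all EB-only regions within 2500 bp of a protein-coding gene end.
Elk3, chr10:93311160-93311409, minus strand: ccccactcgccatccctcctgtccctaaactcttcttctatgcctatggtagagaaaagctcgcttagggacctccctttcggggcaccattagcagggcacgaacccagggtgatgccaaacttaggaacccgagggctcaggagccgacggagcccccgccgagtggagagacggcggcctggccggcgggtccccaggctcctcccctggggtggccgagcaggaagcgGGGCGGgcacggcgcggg
Tet2, chr3:133544391-133544640, minus strand: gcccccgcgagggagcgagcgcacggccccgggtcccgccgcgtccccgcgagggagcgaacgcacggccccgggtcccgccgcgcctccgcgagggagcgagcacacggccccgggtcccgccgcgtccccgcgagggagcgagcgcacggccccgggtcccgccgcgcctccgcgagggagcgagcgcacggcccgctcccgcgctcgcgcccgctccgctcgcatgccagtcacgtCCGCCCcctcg
Klf2, chr8:72318812-72319061, plus strand: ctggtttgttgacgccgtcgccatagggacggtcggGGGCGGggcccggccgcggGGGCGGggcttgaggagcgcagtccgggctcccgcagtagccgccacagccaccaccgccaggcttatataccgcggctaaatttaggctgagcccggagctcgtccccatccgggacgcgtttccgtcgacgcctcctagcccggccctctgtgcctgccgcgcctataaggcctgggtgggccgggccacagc
Fgf4, chr7:144861136-144861385, plus strand: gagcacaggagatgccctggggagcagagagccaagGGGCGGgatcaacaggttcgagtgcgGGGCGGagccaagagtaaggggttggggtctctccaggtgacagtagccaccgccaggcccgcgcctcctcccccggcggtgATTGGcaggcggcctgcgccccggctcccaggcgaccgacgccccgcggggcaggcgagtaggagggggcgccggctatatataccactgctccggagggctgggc
Tfcp2l1, chr1:118627695-118627944, plus strand: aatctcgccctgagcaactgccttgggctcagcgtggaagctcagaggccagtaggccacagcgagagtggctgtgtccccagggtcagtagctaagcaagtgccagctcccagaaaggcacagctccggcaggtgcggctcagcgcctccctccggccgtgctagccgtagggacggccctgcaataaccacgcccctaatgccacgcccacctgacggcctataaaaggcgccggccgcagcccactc

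The next 3 promoters lay in EB-only regions that had H3K4me2 in neither EB KO library. Mapk10 encodes the neuronal JNK3 kinase, Cdh9 a cadherin, and Lix1 is named for its expression in the limb. These 250 bases held 7 CpG at Mapk10, 6 at Cdh9 and 2 at Lix1, against 51 at Tet2, 29 at Klf2, 21 at Fgf4, 19 at Elk3 and 16 at Tfcp2l1. All 3 counts lay below the 5 counts of the promoters that were also marked in the EB KO, but both sets were picked. Over all promoters in EB-only regions the 2 kinds overlapped. A ratio of observed to expected CpG of at least 0.6 was held by 31.8% of the 85 in neither EB KO list. It was held by 76.3% of the 582 in both.
Mapk10, chr5:103211335-103211584, minus strand: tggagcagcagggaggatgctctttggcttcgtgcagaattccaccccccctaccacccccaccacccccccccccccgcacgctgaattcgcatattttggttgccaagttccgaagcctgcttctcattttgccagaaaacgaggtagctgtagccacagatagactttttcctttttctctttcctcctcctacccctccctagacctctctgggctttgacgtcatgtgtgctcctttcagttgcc
Cdh9, chr15:16728665-16728914, plus strand: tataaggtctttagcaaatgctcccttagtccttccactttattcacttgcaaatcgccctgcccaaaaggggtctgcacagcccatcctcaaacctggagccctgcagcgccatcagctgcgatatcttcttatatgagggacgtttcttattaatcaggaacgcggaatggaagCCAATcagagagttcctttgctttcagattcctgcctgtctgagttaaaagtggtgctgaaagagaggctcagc
Lix1, chr17:17402436-17402685, plus strand: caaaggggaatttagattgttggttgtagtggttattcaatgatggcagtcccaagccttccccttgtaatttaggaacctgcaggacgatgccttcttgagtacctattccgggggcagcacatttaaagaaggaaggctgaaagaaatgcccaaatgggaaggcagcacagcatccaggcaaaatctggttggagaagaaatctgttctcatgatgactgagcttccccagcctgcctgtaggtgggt

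The lists differed in length, which bears on every share given below. The H3K4me2 lists held 24600 and 22615 peaks in wild-type ES, 14334 and 19246 in wild-type EB, 29138 and 32874 in ES KO and 15205 and 13818 in EB KO. The H3K4me1 lists held 12746 to 15435 peaks in the 4 ES libraries, 14082 and 13260 in wild-type EB, and 8943 and 5990 in EB KO, while each PRDM16 list held at most 586. The titles name 3 library series, and wild-type EB library 2 and ES KO library 2 of H3K4me2 belong to another series than the remaining H3K4 libraries.

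The EB-only regions were weaker peaks than those in all 4 lists. Their median score percentile was 25.5 in EB library 1 (quartiles 12.5 and 45.7) and 40.9 in EB library 2 (25.9 and 56.2), against 60.0 and 70.7 at regions in all 4 lists. The lower of a region's 2 scores ran from 50.0, the lowest score in the deposited lists, to 325, with a median of 80.0. Just outside the rule lay 3184 regions seen only in EB library 2 (median percentile 15.5), 462 seen only in EB library 1 (9.56), and 606 and 406 regions that were in both EB lists and in ES library 1 or ES library 2 alone (ES percentile 26.8 and 25.5). The number of EB-only regions rested most on EB library 1: without it, 5014 regions would qualify. With a peak required to cover 50% of the region the number was 2871, with the higher-scoring 50% of each list 763, and with a score of at least 100 it was 1015.

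By position, 772 EB-only regions (42.7%) lay within 2500 bp of an end of a protein-coding gene, 562 (31.1%) lay inside a gene away from its ends, and 473 (26.2%) lay between genes. The share at gene ends was close to the 41.8% of all merged regions, lower than the 77.1% of regions in all 4 lists and higher than the 20.3% of ES-only regions. With EB library 1 left out it was 25.5%, and among the higher-scoring 50% of peaks it was 73.7%. Where the promoter table gives start sites (no entry on chromosome 18), 34.9% of the EB-only regions held one (610, of which 542 lay at gene ends), as did 65.2% of regions in all 4 lists and 8.67% of ES-only regions. Regions at gene ends had a median width of 5177 bp and those away from gene ends 2508 bp. Of the 1035 away from gene ends, 212 lay more than 100 kb from any protein-coding gene end. The nearest wild-type ES peak was a median of 18418 bp away, and 35 regions (1.94%) had one within 1000 bp. Over the autosomes and X, between 4.05% (chromosome 13) and 6.08% (chromosome 2) of a chromosome's regions were EB-only.

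**Figure D1:**
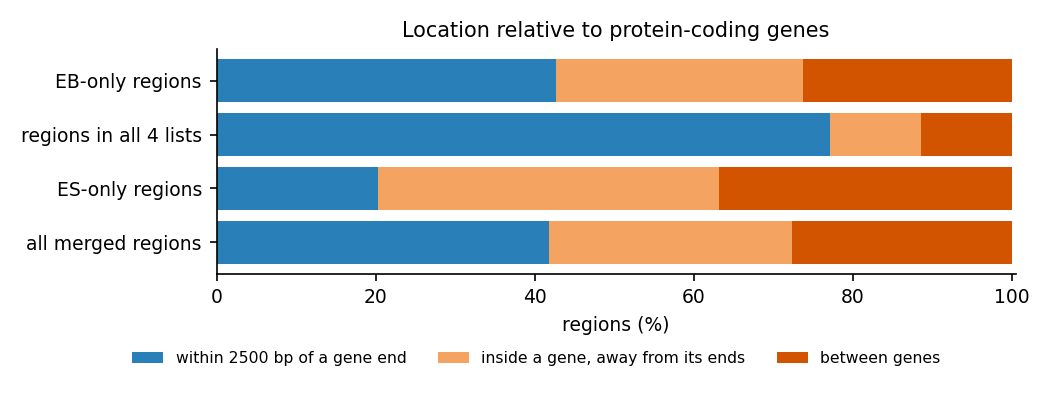
Share of regions (%) within 2500 bp of a protein-coding gene end, inside a gene away from its ends, or between genes, for EB-only regions, regions in all 4 wild-type lists, ES-only regions and all merged regions. Gene ends took 42.7% of the EB-only regions, between the 77.1% of regions in all 4 lists and the 20.3% of ES-only regions.

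H3K4me1 asked whether the regions gained the enhancer mark as well. A peak of H3K4me1 overlapped 16.0% and 13.1% of the EB-only regions in wild-type ES and 17.1% and 15.2% in ES KO. Wild-type EB had 45.9% and 44.3%, and EB KO 31.3% and 21.1%. Every EB library lay above every ES library. In these bulk samples, fewer cells with the mark and less of it per cell cannot be told apart. The mean was 35.7% ± 11.7 (SD, n = 4) in EB and 15.4% ± 1.68 (SD, n = 4) in ES, a difference of 20.3 percentage points (two-sided exact permutation test over libraries, p = 0.0286, the smallest that 70 assignments allow). Adjusted over 12 tests of this family by Benjamini-Hochberg, p was 0.0490. The difference was 30.5 points within wild type and 10.0 points within the KO, where 2 libraries against 2 allow no p under 0.333. Permuting stage within genotype gave p = 0.0556 in an exact test, the smallest possible there.

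At regions in all 4 lists, H3K4me1 went the other way. The shares were 31.5%, 27.6%, 27.2% and 27.0% in the ES libraries and 25.2%, 22.9%, 13.8% and 10.7% in the EB libraries, a difference of -10.1 points (exact permutation test, p = 0.0286, and 0.0857 without any 1 of the 4 ES libraries, at -10.6 to -9.08 points). The EB-only regions moved relative to these by 30.4 points (exact p = 0.0286). As a log2 ratio of the 2 shares within each library, the EB-only regions stood at -0.98, -1.07, -0.67 and -0.83 in ES and at 0.87, 0.95, 1.18 and 0.98 in EB. The log2 ratio was 1.88 higher in EB (exact p = 0.0286, and 1.66 higher with equal list lengths), and it kept that p among the higher-scoring 50% of peaks (1.23) and at a score of at least 100 (1.90). The plain share did not: its difference was 4.33 points (exact p = 0.314) among the higher-scoring 50% and 4.75 points (exact p = 0.143) at a score of at least 100. It also missed the threshold without any 1 of the 4 H3K4me1 ES libraries (19.5 to 20.9 points) or without H3K4me2 wild-type ES library 1 (14.9 points), with exact p = 0.0571 in each case.

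**Figure D2:**
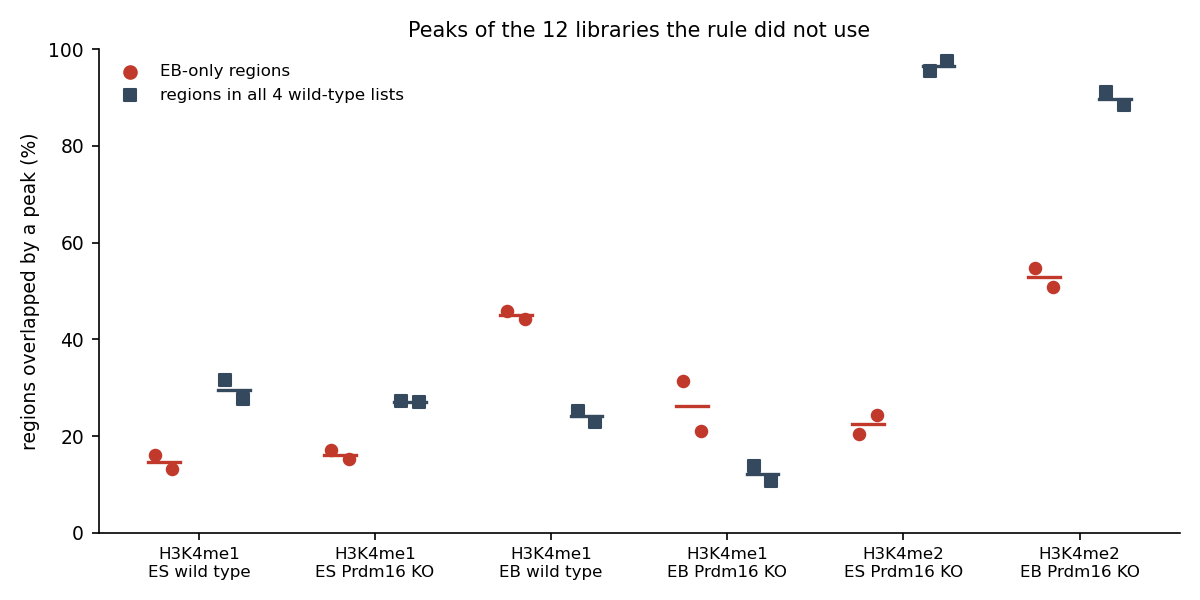
Regions overlapped by a peak (%) in the 12 H3K4 libraries that the choice of regions did not use; each point is a library, bars are means of 2 libraries, circles are the 1807 EB-only regions and squares the 10505 regions in all 4 wild-type lists. H3K4me1 lay at 13.1 to 17.1% of EB-only regions in ES and at 21.1 to 45.9% in EB, while at regions in all 4 lists it lay at 27.0 to 31.5% in ES and 10.7 to 25.2% in EB.

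The H3K4me1 difference was larger in the regions away from gene ends. This split was made after the data were seen. Away from gene ends (1035 regions), H3K4me1 was found at 15.2%, 13.0%, 16.3% and 16.2% in the ES libraries, at 59.2% and 60.9% in wild-type EB and at 40.0% and 28.1% in EB KO. All EB libraries lay above all ES libraries, by 31.9 points in the mean (exact p = 0.0286, and 0.0571 without any 1 of the 4 H3K4me1 ES libraries, at 31.1 to 32.2 points). At gene ends (772 regions) the shares were 17.1%, 13.2%, 18.1% and 13.9% in ES, 28.0% and 22.2% in wild-type EB and 19.7% and 11.7% in EB KO. The ranges of ES and EB overlapped there through EB KO library 2 alone, and the difference of 4.79 points did not pass (exact p = 0.257). The difference between the 2 kinds of region, 27.1 points, passed (exact p = 0.0286), and the same contrast at regions in all 4 lists was -0.736 points (exact p = 0.743). With a score of at least 100 the distal difference was 14.5 points (exact p = 0.114), its excess over gene ends 14.6 points (exact p = 0.0571), and the gene-end difference -0.111 points. Among the higher-scoring 50% of peaks the gene-end difference was -0.756 points. With equal list lengths, with a cover of 50%, or without H3K4me1 EB KO library 2 it passed, at 4.50, 4.83 and 7.70 points (exact p = 0.0286).

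**Figure D3:**
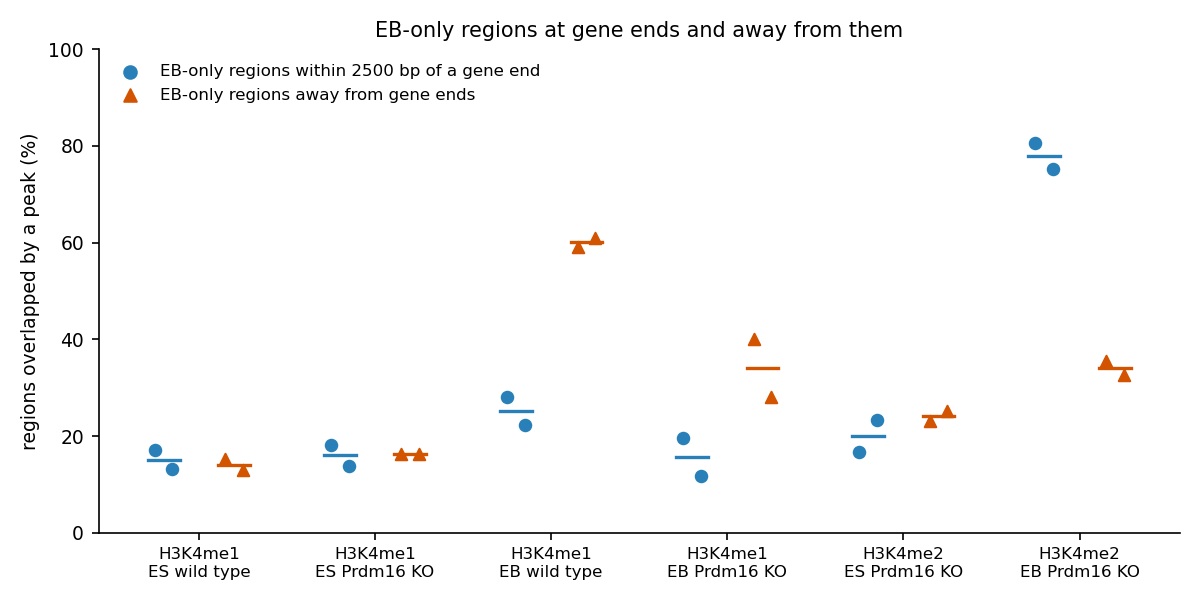
EB-only regions overlapped by a peak (%), split into the 772 within 2500 bp of a gene end (circles) and the 1035 away from gene ends (triangles); each point is a library and bars are means of 2 libraries. H3K4me1 in wild-type EB reached 59.2 and 60.9% away from gene ends and 28.0 and 22.2% at them, while H3K4me2 in EB KO was the reverse, at 35.5 and 32.6% against 80.7 and 75.3%.

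Region by region, 475 EB-only regions (26.3%) had H3K4me1 in both wild-type EB libraries and neither wild-type ES library, a pattern held by 7.05% of all merged regions. Regions seen only in wild-type EB library 2 held it at 28.1%, so it was not particular to the EB-only regions. Of the 475 EB-only regions with it, 390 lay away from gene ends and 85 at them. The reverse pattern held at 40 (2.21%), against 11.7% of all merged regions, and 33 of the 40 lay at gene ends. All 4 EB and no ES library had H3K4me1 at 134 (7.42%, against 1.47% of all merged regions). None of the 8 had it at 518 (28.7%, against 37.5% of all merged regions).

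The highest-scoring regions with the EB wild-type gain of H3K4me1 included ends of Acss3 (an acyl-CoA synthetase), Aff1 (a subunit of the super elongation complex), Mrgpre, Kat2b (a histone acetyltransferase) and Adamts12 (a secreted metalloprotease). The Adamts12 region had H3K4me1 in all 4 EB libraries and no ES library, as did that of Cacng7, a calcium channel subunit. The Kat2b region had it in 3 EB libraries and no ES library, and the Acss3 and Aff1 regions in 2. Away from gene ends, the highest were in or near Arhgap24, Gramd1a, Psd3 and Efna5, the last encoding an ephrin ligand. Their regions had H3K4me1 in 3, 2, 3 and 2 of the EB libraries. The Psd3 and Mrgpre regions also had it in ES KO library 1, while those of Arhgap24, Gramd1a and Efna5 had it in no ES library.

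In the Prdm16 KO, H3K4me2 overlapped 54.8% and 50.8% of the EB-only regions in EB and 20.4% and 24.4% in ES. Both EB KO libraries lay above both ES KO libraries, by 30.4 points, and with 2 libraries against 2 the exact permutation p of 0.333 is the smallest possible. Together with the H3K4me1 libraries, with stage permuted within antibody and genotype, the mean difference was 23.7 points (exact permutation test, p = 0.00926, the smallest possible, 0.0490 adjusted). At regions in all 4 lists, H3K4me2 peaks lay at 91.1% and 88.5% in EB KO and at 95.5% and 97.6% in ES KO. Without wild-type EB library 1 in the choice, the KO difference was 8.15 points.

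Presence in both EB KO lists was seen at 785 EB-only regions (43.4%, against 35.4% of all merged regions). H3K4me2 was in 1 of the 2 lists at 338 (18.7%) and in neither at 684 (37.9%, against 54.4%). All merged regions include those with ES peaks alone. Of the 13324 regions in both wild-type EB lists, 77.4% were in both EB KO lists and 10.9% in neither. By that comparison the EB-only regions were less often present in the EB KO. A peak in both EB KO lists and neither ES KO list, the same pattern as in wild type, was found at 586 EB-only regions (32.4%), against 3.61% of all merged regions. Both ES KO lists held a peak at 296 (16.4%), against 68.0% of all merged regions. Without wild-type EB library 1 in the choice, 19.1% of the regions were in both EB KO lists.

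Presence in the EB KO differed by position. At gene ends 80.7% and 75.3% of the regions had H3K4me2 in the EB KO libraries and 16.7% and 23.3% in the ES KO libraries. Away from gene ends the shares were 35.5% and 32.6% in EB KO and 23.2% and 25.2% in ES KO. Both EB KO lists held 546 of the 772 gene-end regions (70.7%) and 239 of the 1035 distal ones (23.1%). Neither held 114 (14.8%) of the former and 570 (55.1%) of the latter. Regions in all 4 lists also differed by position, with 90.8% at gene ends and 65.8% away from them in both EB KO lists, and 2.28% and 16.2% in neither. These are descriptions, since the EB KO lists are 2 libraries.

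The score moved with presence in the KO. Of the EB-only regions whose lower wild-type percentile was under 20, 23.1% were in both EB KO lists, and the share was 45.1%, 72.1%, 88.3% and 92.9% in the following steps of 20. Regions in all 4 lists stood at 50.4%, 71.8%, 89.3%, 96.5% and 98.9% in the same steps, higher in each. In every step with at least 20 regions of each kind, gene-end regions were above distal ones, from 48.1% against 12.9% in the lowest to 93.7% against 76.2% at 60 to 80. The part of the score, of list length and of genotype in the absence from the KO lists was not tested.

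**Figure D4:**
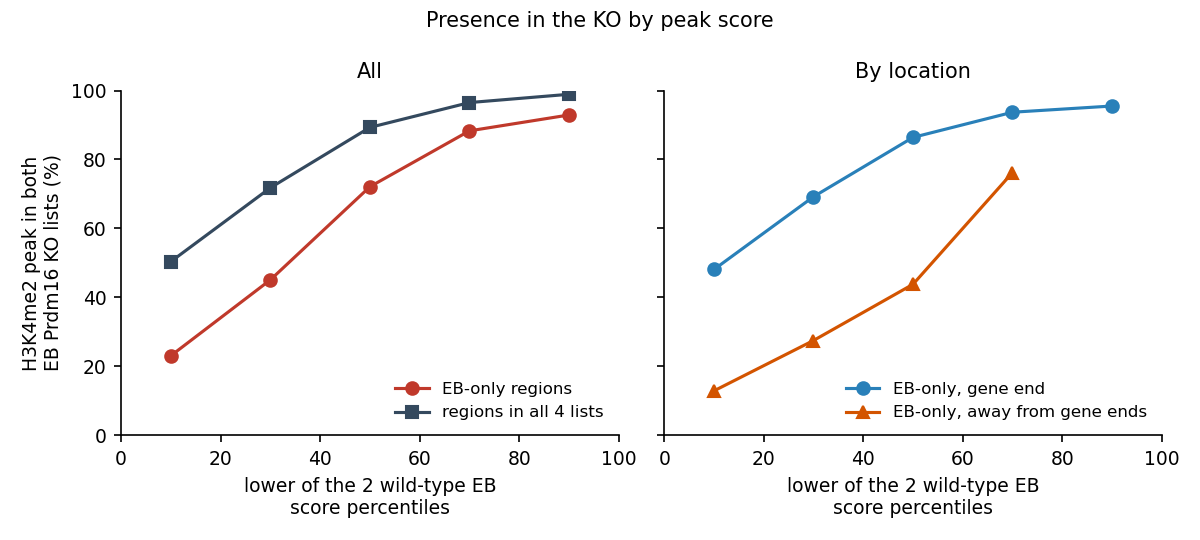
Share of regions (%) with an H3K4me2 peak in both EB KO lists, by the lower of the 2 wild-type EB score percentiles in steps of 20; left, EB-only regions (circles) and regions in all 4 lists (squares); right, EB-only regions at gene ends (circles) and away from them (triangles), with steps under 20 regions left out. The share ran from 23.1% in the lowest step to 92.9% in the highest for EB-only regions and lay below that of regions in all 4 lists in each step.

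H3K4me1 of the same regions in EB was at 45.1% ± 1.10 (SD, n = 2) in wild type and 26.2% ± 7.24 (SD, n = 2) in the KO. Both KO libraries lay below both wild-type libraries, by 18.9 points (exact permutation p = 0.333, the smallest for 2 against 2). Relative to regions in all 4 lists, where the KO lists were also lower, the log2 ratio was 0.17 higher in the KO (exact p = 0.333), with equal list lengths it was -0.13, and without wild-type H3K4me2 EB library 1 it was -0.04. The KO lists of H3K4me1 in EB were also the shortest. The EB minus ES difference was 20.5 points smaller in the KO (exact permutation of genotype within stage, p = 0.111). Away from gene ends it was 28.2 points smaller (exact p = 0.0556, the smallest possible).

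Protein-coding genes with an EB-only region within 2500 bp of an end numbered 972 of 21883 (4.44%). Over the 27 lists of developmental, signalling and control genes the share was 27 of 639 genes (4.23%), near that background, and 11 lists had none. Without wild-type EB library 1 the count was 51, and among the higher-scoring 50% of peaks it was 11. The lists were drawn up with earlier results of these data known.

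Genes of naive pluripotency, the state of undifferentiated ES cells, had the highest share, 6 of 20 (30.0%): Fgf4, Klf2, Klf5, Pou5f1, Prdm14 and Tfcp2l1. Klf2 and Klf5 are Krüppel-like factors of the naive network, Tfcp2l1 is a further factor of it, Prdm14 a PR domain repressor, and Fgf4 the growth factor by which ES cells drive their own exit from pluripotency. The Klf2 region (chr8:72316185-72321501) had H3K4me2 score percentiles of 31.7 and 48.9 in wild-type EB and 84.2 and 47.7 in EB KO, and no H3K4me1 peak. At Tfcp2l1 (chr1:118626147-118629508) wild-type EB had 82.9 and 68.7 and EB KO 67.2 and 85.2, also without H3K4me1. At Fgf4 (chr7:144859399-144865717) they were 73.0 and 47.0 against 42.2 and 39.6, with H3K4me1 in 1 EB library. These 3 regions covered the start sites, whose upstream sequences are given above.

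Prdm14 (chr1:13124290-13129489) stood at 48.2 and 70.3 in wild-type EB and 82.2 and 71.5 in EB KO, with H3K4me1 in 3 EB libraries and no ES library. Klf5 (chr14:99296791-99302382) stood at 48.2 and 50.2 against 64.2 and 54.3, with H3K4me1 in 3 ES libraries and no EB library. The region counted for Pou5f1, which encodes OCT4, lay over Tcf19 and Cchcr1, 2373 bp past the end of the gene and 4343 bp from the nearest start site in the table. The peak lay beside Pou5f1 and not at its promoter. None of the 6 regions had H3K4me2 in an ES KO library, and all 6 had it in both EB KO libraries. For comparison, 54.7% of all EB-only regions at gene ends held that pattern.

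Counted over all 20 naive genes, with any peak within 2500 bp of an end, H3K4me2 lay at 5 and 5 in wild-type ES, 9 and 7 in ES KO, 7 and 11 in wild-type EB and 10 and 11 in EB KO. The ranges of ES and EB overlapped, since wild-type EB library 1 was not above the ES KO libraries. H3K4me1 peaks lay at 3, 5, 8 and 5 of these genes in the ES libraries and at 3, 5, 2 and 5 in the EB libraries, and these ranges overlapped too. Among the higher-scoring 50% of peaks, 2 naive genes had an EB-only region, and with a score of at least 100 there were 5.

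Genes with Tet and Dnmt symbols, a group tied to DNA methylation and picked after the values were seen, had 3 of 7: Tet1, Tet2 and Dnmt3l. The Tet2 region (chr3:133541853-133546590) had percentiles of 88.2 and 92.5 in wild-type EB and 87.0 and 87.0 in EB KO, with no other H3K4 peak in any library. The Tet1 region (chr10:62881334-62888825) stood at 46.2 and 21.2 against 75.7 and 77.0, with H3K4me1 in EB KO library 1. The Dnmt3l region, shared with Aire and 571 bp from the nearest listed Dnmt3l start site, had no peak in either EB KO list. Its wild-type EB percentiles were 30.0 and 17.3.

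Against the 4.44% of all protein-coding genes, lists of this size hold few EB-only regions whatever their genes, and no list was tested. The lists of primed epiblast (12 genes), neuroectoderm (28), neural crest (16), axon guidance (36), blood and endothelium (26), endoderm (27) and trophoblast (16) had none. Nearby H3K4me2 peaks were present at some of these genes at both stages. Of the 28 neuroectoderm genes, they lay at 11 and 14 in wild-type ES and 8 and 9 in ES KO. In EB they lay at 3 and 4 in wild type and 11 and 11 in the KO. Wild-type EB had the fewest such genes of these groups in that list. This did not hold in every list: for blood and endothelium, wild-type EB had 9 and 10 and EB KO 12 and 8. Of the 28 genes of primitive streak and mesoderm, 3 (10.7%) had an EB-only region: Tcf15 and Meox1, which encode somite factors, and Pdgfrb, which encodes a mesenchymal growth factor receptor. At Tcf15 (chr2:152140856-152146600) H3K4me1 was present in all 4 EB libraries and no ES library, and H3K4me2 in both EB KO libraries. The Meox1 region had H3K4me2 in both EB KO libraries and no H3K4me1.

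Single genes of signalling and neuronal lists also appeared. Nrxn3, which encodes a presynaptic adhesion molecule, was in the list of 25 neuronal genes. Its region lacked H3K4me1 in all 8 libraries and H3K4me2 in all 4 KO libraries. Among Wnt genes, 3 of 48 counted (Ror2, a Wnt5a receptor, Wnt5a and Wnt8a). Ror2 had H3K4me2 in both EB KO libraries, Wnt5a in 1 and Wnt8a in neither. The lower wild-type EB percentile of their regions was 31.8, 4.06 and 6.49, in that order. Of all EB-only regions with a lower percentile under 20, 56.9% were in neither EB KO list. In the TGF-beta and BMP list, Bmp5, Inhbb and the region beside Gdf3 made 3 of 43, present in 1, 2 and 2 EB KO libraries. The Notch1 region, at the far end of the gene, had H3K4me1 in 3 EB libraries. It had H3K4me2 in both ES KO but neither EB KO library, and its lower wild-type EB percentile was 12.3. The Hox list had 1 of 39, a region 2079 bp from Hoxb13 with a lower percentile of 11.7. Of the H3K4 enzymes, Kdm1a (the demethylase LSD1) and Rbbp5 (a core subunit of the methyltransferase complexes) made 2 of 19, both present in both EB KO and no ES KO libraries. Markers of fibroblast feeders and of mature tissues counted 1 of 12 (Pdgfrb) and 1 of 16 (Ckm), and housekeeping genes 0 of 16. The lower percentile was 8.45 at Pdgfrb and 0.628 at Ckm.

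Gene families outside the lists were counted after the values were seen. Translation initiation factors had 8 of 56 (14.3%), cytosolic ribosomal proteins 9 of 86 (10.5%) and Srsf splicing factors 3 of 11 (27.3%). Zinc finger genes with Zfp symbols had 17 of 397 (4.28%) and cadherins 3 of 97 (3.09%). No olfactory receptor gene (0 of 1110) had one. All 9 regions at ribosomal protein genes had H3K4me2 in both EB KO libraries, as did 70.7% of all EB-only regions at gene ends.

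**Figure D5:**
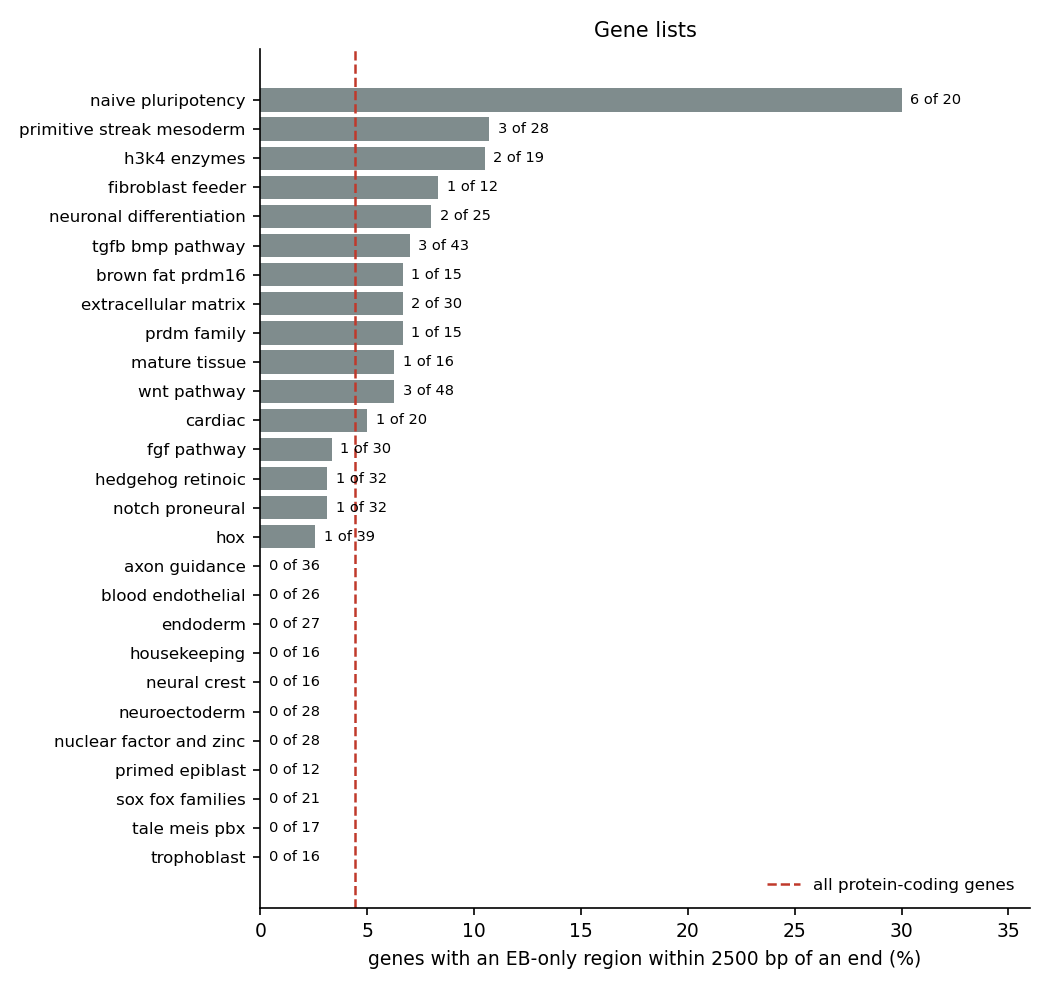
Genes with an EB-only region within 2500 bp of an end (%), by gene list, with the number of genes beside each bar; the dashed line marks the 4.44% of all protein-coding genes. Naive pluripotency stood highest at 6 of 20, and 11 lists had none.

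The EB-only regions with the highest scores at gene ends, by the lower of the 2 percentiles, included those of Elk3 (91.5), Jam2 (89.9) and the shared region of Shld3, Trappc13 and Trim23 (89.5). Jam2 encodes a junctional adhesion molecule. They were followed by Timm21, Tbce, Tet2, Rnf13, Acss3 and the region between Slc15a4 and Glt1d1, from 88.5 to 87.5. These named regions had H3K4me2 in both EB KO libraries and, except at Tbce and Acss3, in neither ES KO library. Kcnmb2, Ankrd44, Aff1, Jakmip2, Ei24, Calcrl, Ddx21, Elovl6, Cep55 and Mrgpre came next, and of these Jakmip2 alone had H3K4me2 in neither EB KO library. Of all EB-only regions at gene ends, 70.7% were in both EB KO lists, and 93.7% of those with a lower percentile of 60 to 80.

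At Elk3 (chr10:93308496-93312784), percentiles were 91.5 and 92.9 in wild-type EB and 94.5 and 55.1 in EB KO, and no library had H3K4me1 there. The Rnf13 region had H3K4me1 in all 4 ES libraries and no EB library, so that the marks had opposite stages there. Percentiles are ranks within lists of unequal length, so no change between genotypes is read from them.

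Away from gene ends the highest were in or near Tasor (90.0), Pigz (89.0), Arhgap24 (82.0), Scml2 (80.8), Gramd1a (80.7), Psd3 (80.2), Ptprc (79.5), Efna5 (78.1), Etl4 (76.9) and Qrfpr (76.8). Tasor encodes a subunit of the HUSH silencing complex, and its region lay 4481 bp from the gene's end. The regions of Tasor, Pigz, Scml2, Gramd1a and Etl4 held a start site listed in the promoter table for that gene, although they lay away from the gene's outer ends. In 9 of the 10 both EB KO libraries had the H3K4me2 peak, Psd3 having it in 1. Presence in both was seen at 23.1% of all EB-only regions away from gene ends. It rose with score, to 76.2% of those with a lower percentile of 60 to 80, so these 10 were not set apart from regions of like score. Both ES KO libraries also had it at Tasor, Arhgap24, Scml2 and Psd3.

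The highest gene-end regions absent from both EB KO lists were those of Jakmip2 (84.2), Mapk10 (73.4), Nrxn3 (64.9), Gabre (63.9), the region at Gdpd2 and Kif4 (53.5), Farsa (52.8), Deup1 (52.6), Lix1 (50.7), Cdh9 (49.7) and Gja5 (49.4). Several are best known from neurons: Jakmip2, Mapk10, Nrxn3, Gabre (a GABA-A receptor subunit) and Cdh9. The first 4 of these had H3K4me2 in neither ES KO library and Cdh9 in 1, while the regions of Gja5 (a connexin) and of Gdpd2 and Kif4 had it in both. The names were taken by score from the 114 such regions. Neuronal genes were not counted over all of them or over the 546 gene-end regions in both EB KO lists. No neuronal theme is therefore read from these names.

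Genes with most EB-only regions in their span extended by 50000 bp on each side were Mcc, Znrf3, Asic4 and Scpep1, with 4 each, of which 3, 3, 1 and 1 lay in the gene itself. Znrf3 encodes a ubiquitin ligase that removes Wnt receptors. Among the genes with 3, those of Bach2, Ece1, Ephb1, Maml3, Pebp4, Psd3 and Ror2 all lay in the gene itself.

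Promoters in EB-only regions resembled those in regions of all 4 lists in base composition. Over 765 entries, the median ratio of observed to expected CpG was 0.761, against 0.774 in regions in all 4 lists, 0.625 in ES-only regions and 0.567 over all 21262 entries. GGGCGG on either strand was in 63.1% of them, 67.5% in regions in all 4 lists and 46.2% of all entries, each running from 250 bases before to 50 after the start site. CCAAT was in 36.5% and 38.2%, and TATAAA in 8.63% and 12.6%, of EB-only and all entries. Within the EB-only regions, promoters whose region was in both EB KO lists (582) had a median CpG ratio of 0.809 and those in neither (85) 0.423. GGGCGG was in 65.6% and 42.4% of these, and TATAAA in 7.39% and 16.5%. Scores differ between the 2 kinds too, and their part was not tested.

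PRDM16 antibody peaks overlapped 39 EB-only regions (2.16%), close to the 1.89% of all merged regions. Of these, 15 had peaks in wild-type libraries alone, 21 in KO libraries alone and 3 in both, and 35 were in 1 of the 8 lists. The 2 in all 8 lists, KO included, lay 56002 bp from Mest and 10876 bp from Tmem267. The share moved with the settings, to 0.139% with a cover of 50%, 0.394% with a score of at least 100 and 1.28% without wild-type H3K4me2 EB library 1.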

How the data were processed

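Of 24 CUT&RUN libraries, the 16 of H3K4me1 and H3K4me2 and the 8 of PRDM16 were used as deposited peak lists, 1 per library. Per the submitters' processing notes, the build was mm10 and the software MACS2, HOMER 4.10, Bowtie2, SAMtools 1.5, deepTools and bedtools, with no role or order stated. For peak calling, parameters were not given in the sources used here. Each peak has a score that the authors deposited, 50.0 at the lowest, and ranks and score filters stayed inside 1 list. Read totals were not analysed here, so depth is unknown.

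Peaks of the 4 wild-type H3K4me2 lists were merged where they overlapped by 1 bp or more, and any overlap of 1 bp counted as presence. The members and gene lists were chosen with earlier results of these data known. A gene end is either end of a protein-coding gene (21883 genes, RefSeq, GRCm38.p6), with a window of 2500 bp. Named regions were the 20 highest-scoring at gene ends, the 10 highest in each other class by the lower percentile, and those at listed genes or miRNAs; some are not reported here. Library shares were compared by two-sided exact permutation tests with Benjamini-Hochberg adjustment over 12 tests. Their 95% Wilson intervals at the members reached at most 2.3 points to either side and cover counting error only. The region counting was tested on simulated data, where 500 of 500 planted regions were recovered. Alternatives were score, list length, cover, merging distance, contigs, window, library series, left-out libraries and the replicate number as a block; the splits by gene end, the comparisons with regions in all 4 lists and the added gene families were chosen after seeing the data. Python 3.11.15, numpy 2.4.6, pandas 2.3.3, SciPy 1.17.1 and matplotlib 3.10.9 were used.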

Additional observations from a re-analysis of the deposited data

Results flagged for a closer look

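Among 8 groups of 4 libraries, 1 held a library that stood apart by Dixon's criterion, which chance meets in about 1 in 20 groups. H3K4me1 peaks overlapped 31.5% of the regions in all 4 wild-type H3K4me2 lists in wild-type ES library 1, against 27.6%, 27.2% and 27.0% in the other ES libraries. The gap took 0.864 of the range; the criterion for 4 libraries was exceeded. That library also had the longest H3K4me1 list, 15435 peaks, and its share of the EB-only regions, 16.0%, lay within the range of the other ES libraries.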

How the results depend on the processing

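With the higher-scoring 50% of each list there were 763 EB-only regions, 73.7% at gene ends, with 11 listed genes; H3K4me1 differed between EB and ES by 4.33 points (exact p = 0.314), and by -0.756 at gene ends. With a score of at least 100 there were 1015, 66.6% at gene ends, with 13 listed genes, 40.7% in both EB KO lists and 0.394% with PRDM16; H3K4me1 differed by 4.75 points, -0.111 at gene ends, 14.5 away from them and 14.6 between these. With a cover of 50% there were 2871, 52.1% at gene ends, 61 listed genes, 29.3% in both EB KO lists, 0.139% with PRDM16 and a gene-end H3K4me1 difference of 4.83 points. With equal list lengths these were 55.4%, 55.6%, 1.29% and 4.50 points, and the relative KO difference was -0.13. Without the libraries of other series, 40.1% lay at gene ends and 37.2% in both EB KO lists. A window of 10000 bp gave 51.6% and 42 listed genes.

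Leaving out 1 library gave 1807 to 5014 regions, 25.5 to 47.2% at gene ends, 27 to 51 listed genes, 19.1 to 54.8% in both EB KO lists and 1.28 to 2.52% with PRDM16, the counts moving most without wild-type H3K4me2 EB library 1. The H3K4me1 difference ran from 14.9 to 25.2 points, from 2.12 to 7.86 at gene ends, from 25.6 to 38.2 away from them and from -12.5 to -7.64 at regions in all 4 lists. The relative KO difference ran from -0.04 to 0.27. The relative EB difference and the combined one (17.4 to 25.4 points) passed whichever of the 16 libraries was left out.

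Replicate numbers did not pair the libraries (r from -0.03 to 0.03 over 12 pairs of groups). With the replicate block, exact p was 0.125, the smallest possible, for differences of 20.3, 31.9, 27.1, -10.1 and 30.4 points and 1.88 on the log2 scale. The cause of these changes was not tested.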

Other observations

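The 3184 regions seen only in wild-type EB library 2, which just miss the choice, lay away from gene ends more often than the 1807: 15.8% were at gene ends, against 42.7%. H3K4me1 peaks overlapped 46.3% and 45.9% of them in wild-type EB, 25.7% and 18.4% in EB KO and 8.70 to 12.7% in the ES libraries. At the 1807 regions the shares were 45.9% and 44.3% in wild-type EB, 31.3% and 21.1% in EB KO and 13.1 to 17.1% in ES, so that the wild-type EB shares were close and the ES ranges did not overlap. H3K4me2 in EB KO was found at 13.6% and 11.4% of them, against 54.8% and 50.8%.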
